A study of Gallus gallus with 12 samples.

Results

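The genes described here are those whose RNA lay on opposite sides of its control when *Myoz3* was knocked down and when it was overexpressed in chicken embryonic fibroblasts (CEFs). They were chosen from the deposited counts by their values. CPM is the count per 1000000 counts of a library, and levels were compared as log2(CPM + 1), on which 0.2 is 1.15-fold for a well counted gene and less than the true change for a weakly counted one. A gene was taken when its mean over the 12 libraries was 5 CPM or more, when the mean of the *Myoz3* siRNA libraries differed from its control by at least 0.2 in one direction and the mean of the overexpression libraries by at least 0.2 in the other, when no library of a treated group overlapped its control in either comparison, and when the control groups of both comparisons differed by less than 2. This gave 74 genes of the 26102 gene IDs in the table and of the 10384 IDs at 5 CPM or more.

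CEFs are primary connective tissue cells, here from 9-day-old broiler embryos without specific pathogens. Inter was transfected with siRNA against *Myoz3* and NC with a non-specific siRNA. Over received a vector that carries the *Myoz3* coding sequence under the CMV promoter, and Control the empty vector. Each group had 3 libraries, each from its own transfected sample, and the paper calls these biological replicates. RNA was taken 48 hours after transfection. All groups went through the same lipid transfection. Nothing states that replicates came from different embryos, so the spread between libraries may be partly technical, and the cells were plated from minced trunk tissue that can hold more than fibroblasts. The knockdown comparison uses Inter 1 and Inter 2 only. The remaining Inter library was set aside in the original work because its RNA profile and *Myoz3* level were close to NC, although the text there once calls the library left out an NC library.

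In mammals, myozenin 3 is a protein of the Z-disc of skeletal muscle, where thin filaments are anchored, and it binds calcineurin and alpha-actinin. Calcineurin is a calcium-dependent phosphatase that sends NFAT transcription factors to the nucleus, and it takes part in setting muscle fibre type. Fibroblasts have no Z-discs, and lowering and raising the same gene asks which RNAs follow its level in either direction. In the paper's screening of siRNAs and vector, the siRNA lowered *Myoz3* only in part, while the vector raised it many-fold. For the sequenced libraries other than Inter 3, its text describes *Myoz3* as scarce in Inter and high in Over, without sizes. The changes in its level may therefore have been unlike in size.

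The total count ranged from 13291600 to 23576681 per library, with NC between 13291600 and 15969800, Inter between 14261605 and 19804175, Control between 21204899 and 23576681 and Over between 18300623 and 19773117. The table pairs no ID with a gene symbol, and the gene table at hand matched 0 of the 26102 IDs. The members therefore have no gene names or roles here, the row of *Myoz3* was not analysed here, and the fibroblast label was not checked against its markers. Few members are given by ID: the first of each direction by the size of the smaller of their 2 differences, the IDs that the study's text prints, and those that the test across all genes called.

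Of the 74 members, 44 were higher in Inter and lower in Over, and 30 were lower in Inter and higher in Over. In the first direction the median difference was 0.29 in the knockdown (range 0.21 to 0.52) and -0.30 in the overexpression (range -0.71 to -0.20). In the second it was -0.29 in the knockdown (range -0.42 to -0.20) and 0.35 in the overexpression (range 0.20 to 0.58). The median over all genes at 5 CPM or more was 0.03 in both comparisons. As ratios of CPM + 1, these medians were 1.22-fold and 1.23-fold in the first direction and 1.22-fold and 1.27-fold in the second. The largest such ratio of any member was 1.63-fold. Ratios of CPM itself are larger, most of all in weakly counted genes. As the RNA is from whole cultures, fewer cells of a type and less RNA per cell cannot be told apart.

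**Figure D1:**
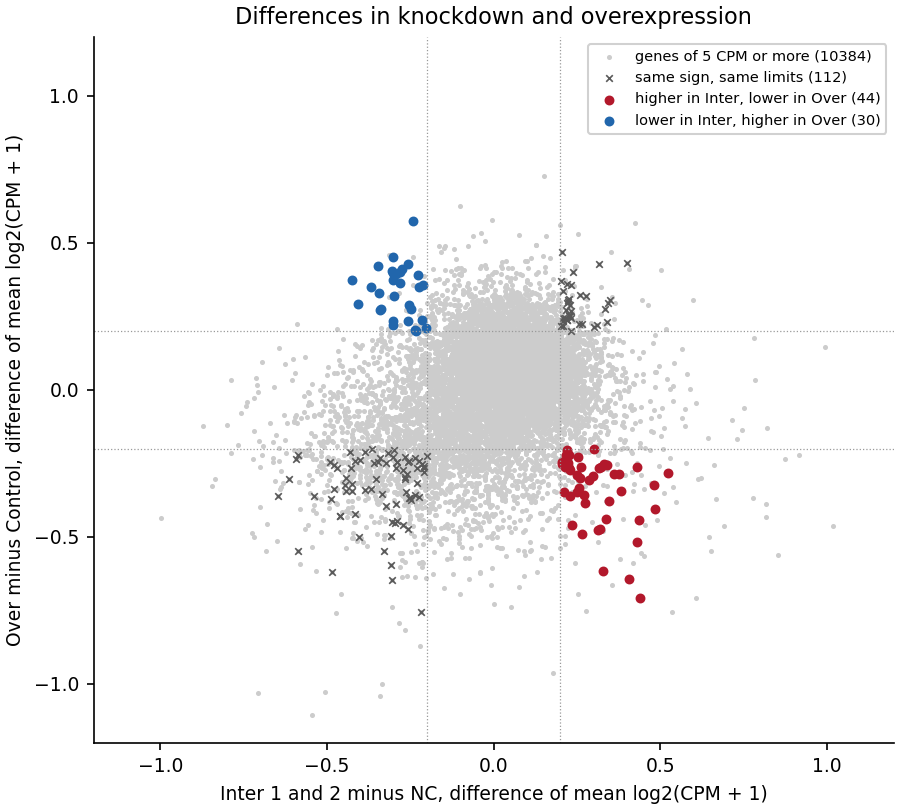
Each point is a gene, placed by the difference of mean log2(CPM + 1) between Inter 1 and 2 and NC (horizontal) and between Over and Control (vertical), with dotted lines at the limit of 0.2 and 2 genes lying outside the plotted range. The 44 red and 30 blue members sit in the opposite-sign corners by the rule that chose them, and the 112 crosses are the genes past the same limits with the same sign in both comparisons.

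The rule alone fixes the opposite signs, so the members were set beside the genes that met every other condition with the same sign. There were 112 such genes, 37 higher and 75 lower in both comparisons, so that members made up 39.8% of the 186 genes past all limits. Among the 10384 genes at 5 CPM or more, 3867 (37.2%) had opposite signs whatever their size. The members were 0.713% of these 10384 genes, and the genes of the same sign were 1.08%. Inter and NC did not overlap in 36.2% of the 10384 genes, and Over and Control did not overlap in 23.5%, which are the backgrounds of the conditions that all 74 members meet by choice. The order of the 2 counts depended on how the libraries were scaled. With edgeR's TMM library sizes in place of column totals there were 92 genes of opposite and 88 of the same sign, and with size factors of the DESeq2 type there were 99 and 109. It also turned with single libraries, to 132 of opposite and 97 of the same sign without Inter 1, 110 and 86 without Over 2, 109 and 99 without Control 2, and 32 and 24 with Inter 3 included, while without Over 1 there were 112 and 367. The split of the members moved with the scaling, from 44 and 30 to 50 and 42 with TMM and to 42 and 57 with the DESeq2 type.

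The member with the largest smaller difference was ENSGALG00000029940. It had 26.4, 21.9 and 19.2 CPM in NC and 28.7 and 32.8 CPM in Inter 1 and 2. It had 26.5, 43.0 and 36.0 CPM in Control and 21.0, 25.0 and 17.0 CPM in Over. Every Inter value was above every NC value and every Over value below every Control value, though Over 2 and Control 1 were only 0.08 apart on the log2(CPM + 1) scale. The means were 22.5 ± 3.62 CPM in NC (SD, n = 3), 30.7 ± 2.89 CPM in Inter (SD, n = 2), 35.2 ± 8.28 CPM in Control (SD, n = 3) and 21.0 ± 4.03 CPM in Over (SD, n = 3). The differences on the log2(CPM + 1) scale were 0.44 and -0.71. In Inter 3, which played no part in the differences that chose it, it had 38.9 CPM, the highest of the siRNA libraries.

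ENSGALG00000011668, which the study's text lists by its ID, was the next in this direction. It had 425, 424 and 537 CPM in NC and 610 and 633 CPM in Inter 1 and 2. It had 296, 308 and 423 CPM in Control and 231, 295 and 225 CPM in Over, where Over 2 and Control 1 were only 0.0065 apart on the log2(CPM + 1) scale. NC 3 and Control 3 were the highest libraries of their groups. The differences were 0.43 in the knockdown and -0.44 in the overexpression, and Inter 3 had 481 CPM, inside the NC range.

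ENSGALG00000005180 led the other direction. It had 124, 112 and 91.7 CPM in NC and 87.4 and 74.3 CPM in Inter 1 and 2. It had 65.1, 59.0 and 44.2 CPM in Control and 70.9, 67.6 and 78.2 CPM in Over. NC 3 and Control 3 were the lowest libraries of their groups, the reverse of ENSGALG00000011668. Knockdown and overexpression differed from their controls by -0.42 and 0.37. The Control libraries lay below all Inter libraries, so that its level differed more between the control groups (-0.96) than in either comparison. Inter 3 had 95.4 CPM, inside the NC range.

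ENSGALG00000010747 was a weakly expressed gene whose control groups were close to each other. It had 9.03, 9.64 and 10.8 CPM in NC and 7.85 and 6.92 CPM in Inter 1 and 2, with 8.15 CPM in Inter 3. It had 9.26, 8.02 and 9.05 CPM in Control and 10.9, 11.8 and 11.6 CPM in Over. Inter was the lowest and Over the highest of the 4 groups, NC and Control overlapped between them, and Inter 3 lay below all NC libraries. The differences were -0.37 and 0.35.

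ENSGALG00000037711 is the other member that the study's text lists by ID. It had 102, 111 and 105 CPM in NC, 91.2 and 89.7 CPM in Inter 1 and 2 and 97.1 CPM in Inter 3. It had 73.3, 67.5 and 74.0 CPM in Control and 88.5, 97.5 and 96.7 CPM in Over. All Inter libraries were below all NC libraries, and the difference of -0.23 in the knockdown was smaller in size than that of 0.39 in the overexpression. Of the other IDs in that text, ENSGALG00000035656 and ENSGALG00000028466 are no members, as both were lower in Inter and in Over (differences of -0.47 and -0.76, and of -0.34 and -0.35).

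**Figure D2:**
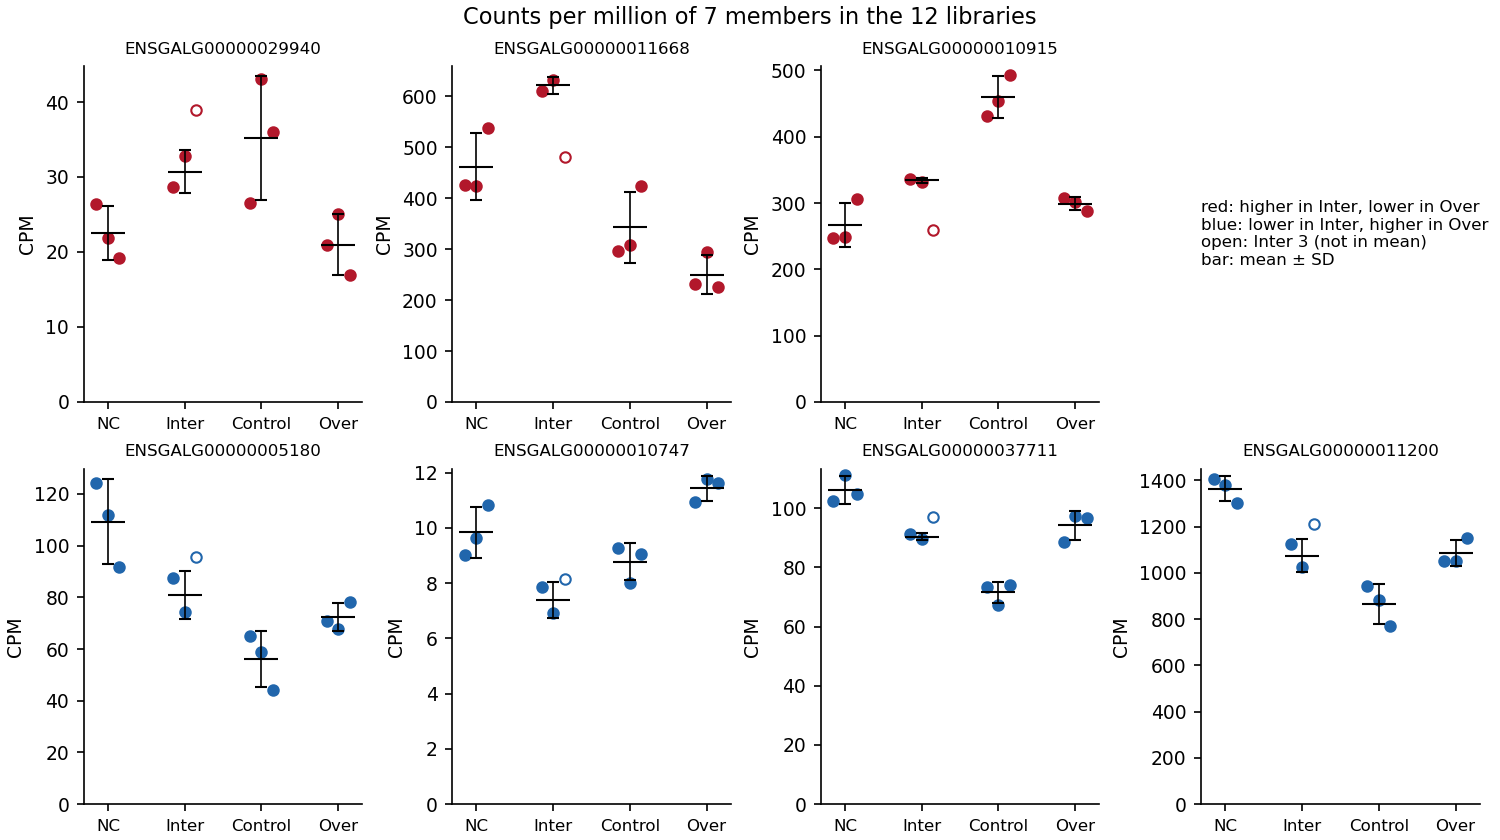
CPM (vertical, from 0) of 7 members in NC, Inter, Control and Over, with each library as a point, Inter 3 open, and bars for the mean ± SD of the libraries the rule compared. In ENSGALG00000010747 Over stands highest and Inter lowest of all groups, while in ENSGALG00000005180, ENSGALG00000011200 and ENSGALG00000037711 Control lies below the other 3 groups.

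edgeR's quasi-likelihood test was fitted to each comparison over the whole table, with Benjamini-Hochberg adjustment at 0.05. Since the members were chosen on the same differences, their calls are given only as a description. The test called 1 of the 74 members in the knockdown, where it called 0.225% of 14194 genes, and 1 in the overexpression, where it called 0.0283% of 14128 genes. No member was called in both. The 32 knockdown calls over all genes became 0 without Inter 1 or without Inter 2 and 1350 without NC 3, and the 4 overexpression calls became 1885 without Over 1 and 0 without any other library. The likelihood ratio test, which the study used, called 15 members in the knockdown against 2.4% of all genes tested and 29 in the overexpression against 2.93%. It called 8 members in both comparisons, 4 in each direction, and 38 in neither. These 8 had differences of 0.23 to 0.48 in size in the knockdown and of 0.33 to 0.47 in the overexpression. Their mean levels were 19.1 to 1109 CPM. The share of all tested genes called in both comparisons, or in neither, is not given here. The counts of members in both and in neither therefore have no background and are not read as a result. At an unadjusted p under 0.05 from the quasi-likelihood test were 59 members in the knockdown, against 14.8% of all genes, and 68 in the overexpression, against 18.6%.

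The member called in the knockdown by the quasi-likelihood test was ENSGALG00000011200, the most highly expressed of the 74, named here after its values were seen. It had 1408, 1381 and 1302 CPM in NC, 1124 and 1024 CPM in Inter 1 and 2 and 1213 CPM in Inter 3. It had 944, 883 and 772 CPM in Control and 1052, 1051 and 1151 CPM in Over. All 3 Inter libraries lay below all NC libraries, and the lowest Over library was above the highest Control library by more than the SD of either group. Except for Inter 3, the rule itself requires this lack of overlap. The differences were -0.35 and 0.33, and the overexpression libraries were at the level of Inter 1 and 2.

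The member called in the overexpression was ENSGALG00000010915, also named after its values were seen. It had 431, 454 and 493 CPM in Control and 308, 302 and 288 CPM in Over. It had 248, 248 and 306 CPM in NC, 337 and 331 CPM in Inter 1 and 2 and 260.0 CPM in Inter 3. The difference of -0.62 in the overexpression was well outside the spread of both groups. The rule and the call on these same libraries largely fix this. The difference of 0.33 in the knockdown rested on Inter 1 and 2 alone, since Inter 3 lay inside the NC range. NC 3 was again the NC library nearest to Inter.

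The members had a somewhat lower median level than other genes and lay between 5.07 and 1109 CPM. Their median mean level was 25.8 CPM, against 35.3 CPM over all genes at 5 CPM or more. At 100 CPM or more were 16 members (21.6%, against 19.5% of all these genes), under 20 CPM were 30 (40.5%, against 32.2%), and 1 member exceeded 1000 CPM. Counts of a member in a library ranged from 52 to 22062. The standard error from counting alone was between 0.01 and 0.13 for the knockdown difference (median 0.06) and between 0.01 and 0.11 for the overexpression difference (median 0.05). The difference was over 2 of these standard errors in 73 members in the knockdown and in 74 in the overexpression. This covers counting error only. The size limit of the rule largely fixes these numbers of members, and no share of other genes is given beside them. These numbers are therefore not read as a result.

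The separation of the groups was often narrow. The gap between the closest libraries of the groups had a median of 0.11 in both comparisons, and it was under 0.05 in 13 members in the knockdown and in 14 in the overexpression. Both differences were 0.3 or more in size in 12 of the 44 members and in 8 of the 30, and 26 members had a smaller difference under 0.25. The members closest to the limit had smaller differences of 0.2015, 0.2021 and 0.2028, and the genes just outside it had 0.1999, 0.1997 and 0.1987. In all, 244 genes met every condition of the rule but the size.

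Inter 3 was the only library that the rule did not compare, and it entered only the mean level over the 12 libraries. It was measured against NC, which the rule did compare, so its shares are read only beside those of other genes chosen on the same NC libraries. With 1 library there is no test. Inter 3 lay beyond all NC libraries in the direction of Inter 1 and 2 in 35 of the 74 members (47.3%), within the NC range in 36 and beyond it on the other side in 3. Among all 1554 genes that met the knockdown part of the rule this share was 30.8%, and among the 112 genes of the same sign in both comparisons it was 27.7%. It was 17 of 44 (38.6%) for the members higher in Inter and 18 of 30 (60%) for those lower in Inter. Of all genes that met the knockdown part, members included, the shares were 41.1% and 19.7% in these directions. The members higher in Inter were close to this background and those lower in Inter stood above it. The background was not matched on the overexpression part or on the place of NC 3. NC 3 lay below the NC mean in 23 of the 30 members lower in Inter, against 89.8% of such non-members. The median difference of Inter 3 from NC, taken in the direction of Inter 1 and 2, was 0.05 and 0.17 in the 2 directions. Among all genes that met the knockdown part, members included, it was 0.05 and -0.08. For Inter 1 and 2 together the members had 0.29 in both directions, but there the rule required at least 0.2. With Inter 3 counted as another replicate, 30 of the 74 genes still met the whole rule, 14 and 16 of the 2 directions.

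**Figure D3:**
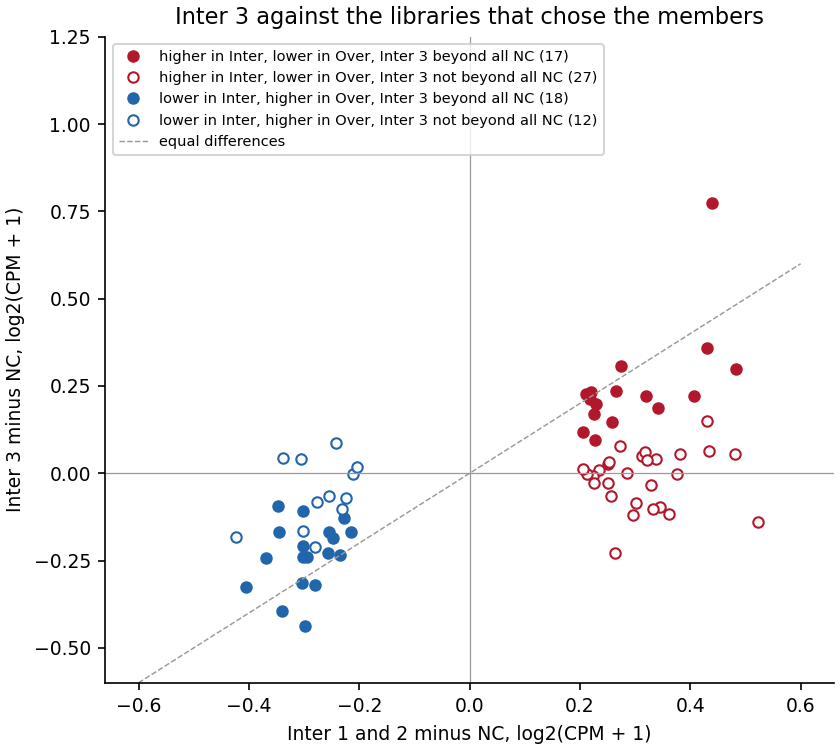
Each point is a member, placed by its difference from NC in Inter 1 and 2 (horizontal) and in Inter 3 (vertical) on the log2(CPM + 1) scale, filled where Inter 3 lay beyond all NC libraries in the same direction. Most points lie nearer to 0 in Inter 3 than in Inter 1 and 2, and 35 of the 74 are filled. The rule required a difference of at least 0.2 in Inter 1 and 2 and set no such limit for Inter 3.

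The replicates of a group were not alike for the members, and since the rule compared 11 of the 12 libraries and sorted the genes by direction, their places are only described. NC 3 was above the NC mean in 36 of the 44 members higher in Inter and below it in 23 of the 30 members lower in Inter. Of the non-members that met the knockdown part of the rule, NC 3 was above the mean in 60.3% of those higher in Inter and below it in 89.8% of those lower in Inter. Control 1 was below the Control mean in 37 of the 44 and above it in 23 of the 30, and Over 1 was above the Over mean in 32 of the 44 and below it in 27 of the 30. Of the non-members that met the overexpression part, sorted alike, Control 1 was below in 73.9% and above in 70.5%, and Over 1 above in 91.8% and below in 89.6%. Control 1 and Over 1 thus stood apart outside the members too, and NC 3 did so mainly in the genes lower in Inter. The other Control libraries differed. Control 3 was above the mean in 33 of the 44 and below it in 21 of the 30, against 35.3% and 49.7% of these non-members. Control 2 was above in 19 of the 44 and in 21 of the 30, against 76.2% and 31.7%.

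The correlation of 2 members over the deviations of the 12 libraries from their group means had a median of 0.42 for pairs of the first direction (946 pairs), 0.26 for pairs of the second (435 pairs) and -0.35 for pairs across directions (1320 pairs). These values are not particular to the members. Non-members that met the knockdown part had medians of 0.40, 0.69 and -0.50, and those that met the overexpression part had 0.43, 0.26 and -0.24. Over the 9 libraries other than Inter the members had 0.28, 0.28 and -0.28, against 0.24, 0.54 and -0.32 and against 0.40, 0.32 and -0.27. All pairs share their libraries and the scaling of each.

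**Figure D4:**
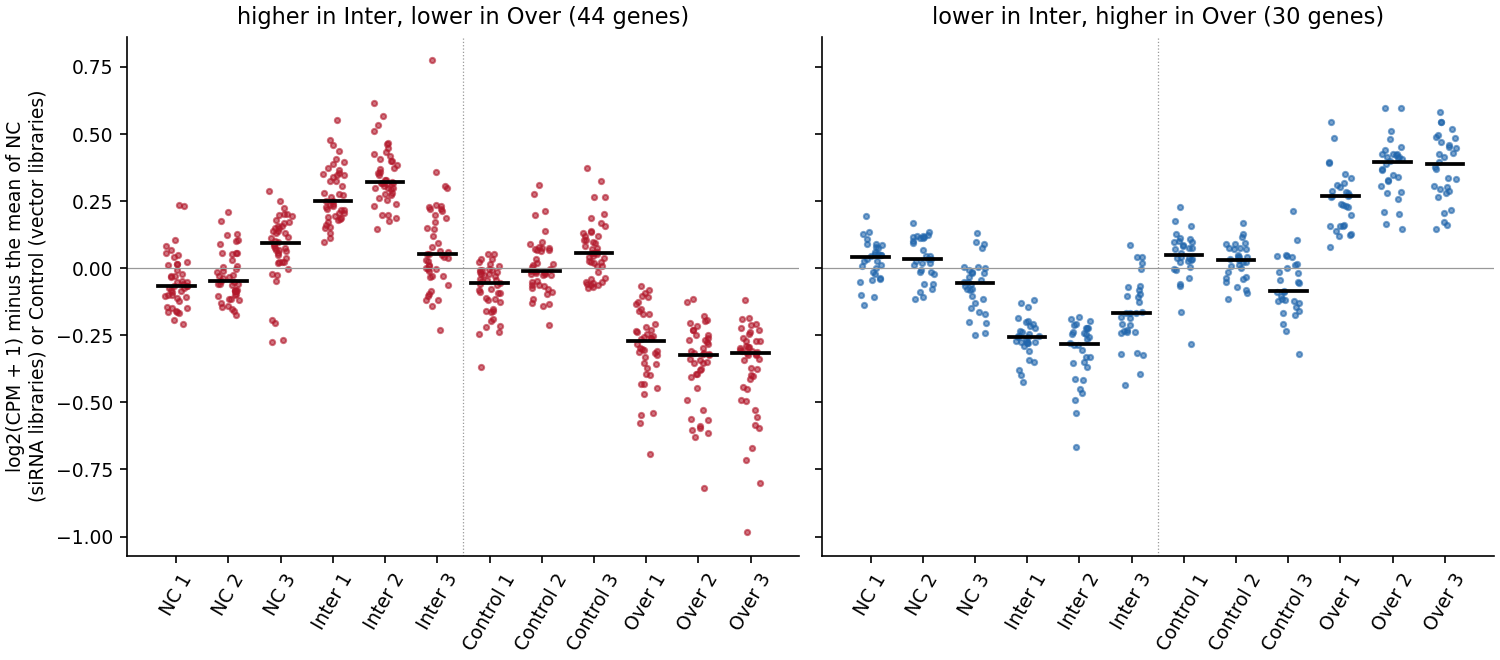
Each point is a member, at its log2(CPM + 1) minus the mean of NC (siRNA libraries) or of Control (vector libraries), with a black line at the median of each library. The median of Inter 3 lies within those of the NC libraries in the first direction (0.05, with NC 3 at 0.09) and between NC and the other Inter libraries in the second (-0.17, with NC 3 at -0.06).

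The medians show the same libraries apart. For the 44 members higher in Inter, the median difference from the NC mean was 0.25 in Inter 1 and 0.32 in Inter 2, and it was -0.07, -0.05 and 0.09 in NC 1, 2 and 3. For the 30 members lower in Inter it was -0.26 and -0.28 in Inter 1 and 2, and 0.04, 0.04 and -0.06 in the NC libraries. In the overexpression the median differences from the Control mean were -0.27, -0.32 and -0.32 in Over 1, 2 and 3 for the first direction, and 0.27, 0.39 and 0.39 for the second. NC 3 was the NC library nearest to Inter in 46 of the 74 members (62.2%), as in 63.6% of all genes that met the knockdown part. Inter 1 was nearer to NC than Inter 2 in 52 of the 74 (70.3%), against 33.7% of those genes. Over 1 was the Over library nearest to Control in 48 of the 74 (64.9%), against 82.3% of the 1443 genes that met the overexpression part. Control 1 was nearest to Over in 37 (50.0%), against 45.4%, and Control 3 in 12 (16.2%), against 38.3%.

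The control groups differed from each other in most members, as in most genes within the limit of 2, so this is not particular to the members. NC and Control did not overlap in 53 of the 74 (71.6%), against 77.8% of the 9650 genes at 5 CPM or more within the limit of 2. Control was below NC in 27 of the 30 members lower in Inter (90.0%), with a median difference of -0.51, and in 18 of the 44 higher in Inter (40.9%), with a median of 0.16. Of all genes within the limit, 62.7% were lower in Control. These shares and medians rest on column totals. The TMM factors that multiply these totals were 1.06 to 1.07 in NC and 0.89 to 0.93 in Control. TMM would therefore raise Control relative to NC, and the shares were not recomputed with it. These differences share the NC libraries with the knockdown and the Control libraries with the overexpression, so a like or unlike sign among them is not read as a result. The siRNA and vector libraries differ in transfected material and in depth, which cannot be told apart. The limit on this difference removed 10 further genes, 9 of them higher in Control.

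Which genes qualified depended on single libraries, whereas the signs of the members did not. Under the other scalings and pseudocount, with Inter 3 included and with each library left out, every member kept the sign of both differences, which the choice of members without overlap largely fixes. With each of the 11 libraries that the rule compared left out in turn, between 56 (without Inter 2) and 73 (without Over 1) of the 74 still qualified, and 27 did so every time. TMM library sizes kept 48 of the 74 and DESeq2-type factors 43. A set of 8 genes qualified in all 19 settings tried, other floors and limits included, 4 in each direction, among them ENSGALG00000029940, ENSGALG00000010747 and ENSGALG00000011200. Their knockdown differences were 0.30 to 0.48 and their overexpression differences 0.33 to 0.71 in size, at mean levels of 7.75 to 1109 CPM. A size limit of 0.3 was among the settings, so no difference could be smaller, while the lower floors could remove no member.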

How the data were processed

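RNA of 12 CEF libraries was sequenced in pairs of reads. The authors removed adapter, poly-N and low quality reads, aligned the rest to galGal5 with TopHat2 2.0.12 on a Bowtie2 2.2.3 index, and counted reads per Ensembl gene ID with HTSeq 0.6.1 (versions from the submitters' processing notes). The deposited table holds raw whole-number counts. No source used here gives the annotation release, strand setting or counting mode, so reads of genes that overlap, lie antisense or have a close copy may be misassigned.

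The rule was applied to CPM from column totals. R 4.3.3 with edgeR 4.0.16 and DESeq2 1.42.0 was used for tests (filterByExpr with a minimum count of 10 and total of 15, TMM, glmQLFit, glmQLFTest), and Python 3.11.15 for the rest. Knockdown and overexpression were fitted apart. The scripts were tested on simulated data. Alternatives were other tests, scalings, filters, limits and libraries, and correlations without Inter or with TMM and their reference genes were added after seeing the data. The members, lists and rules were chosen with earlier results of these data known. The named members were to be the first 2 of each direction by the smaller difference, and IDs in the study's text. Pathway and cell type lists by symbol could not be applied, and no sequences were at hand.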

Additional observations from a re-analysis of the deposited data

How the results depend on the processing

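Each library left out in turn gave between 38 and 80 members higher in Inter and between 27 and 62 lower in Inter, against 44 and 30. The shifts were largest without NC 3 (73 and 61), Inter 1 (70 and 62), Control 1 (73), Control 2 (68) and Over 2 (80) for the first direction, and Over 1 (54) for the second. A floor of 1 CPM gave 77 in the first direction, no floor 93 and 47, a limit of 0.3 gave 12 and 8, Inter 3 included gave 14 and 18, and DESeq2-type factors gave 57 in the second; fewer or more genes and libraries enter these by construction, and for the scaling the cause was not tested. Genes of the same sign in both comparisons (112) numbered 86 without Over 2 to 367 without Over 1, with 224 without NC 3, 288 without Inter 2 and 230 without Control 3, and 28 at the limit of 0.3. With TMM the members' correlations within directions and across them were 0.37, 0.22 and -0.20 over 9 libraries, against 0.06, 0.66 and -0.20 for non-members past the knockdown part and 0.55, 0.12 and -0.14 for those past the overexpression part. The share of members with Inter 3 beyond NC stayed between 44.6% and 52.1% under TMM, another pseudocount and a floor of 1 CPM.

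The quasi-likelihood calls in the knockdown (32) and the overexpression (4) became 341 and 414 with the likelihood ratio test, 196 and 389 with DESeq2, 11 and 10 with total counts only, and 834 and 316 without a low-count filter. With Inter 3 included the quasi-likelihood test called 0 genes in the knockdown (700 at an unadjusted p under 0.05). Without single libraries the knockdown gave 0 to 1350 calls: 0 without Inter 1 (874 at an unadjusted p under 0.05) or Inter 2 (1549), 5 without NC 1, 16 without NC 2 and 1350 without NC 3; a lone Inter library was assumed to vary like NC. The overexpression gave 0 to 1885: 1885 without Over 1, and 0 without any other library (1312 to 3037 at an unadjusted p under 0.05). With the replicate number as a block there were 2242 and 9 calls. In the knockdown NC 3 was then alone in its block, so that fit compared Inter 1 and 2 with NC 1 and 2 only. Same-numbered libraries had correlations of -0.15 to 0.17 in their deviations from the group means. In groups this small the deviations must sum to 0, so these correlations cannot tell whether equal numbers mark pairs. The cause of these shifts was not tested. Symbols would be needed to say what any member encodes.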
